A study of Mus musculus with 15 samples.

Results

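The 54 genes described here encode nucleolar ribosome biogenesis factors, the proteins that transcribe, modify, cleave and assemble ribosomal RNA in the nucleolus. They were chosen as a list of gene symbols. That rule uses no measured value, but the list was chosen with earlier results of these data known. All 54 were among the 12721 genes listed for every group, of 13172 listed for at least 1 group. By role they comprise 5 factors of RNA polymerase I transcription, 3 box C/D and 4 box H/ACA small nucleolar ribonucleoprotein (snoRNP) proteins, 4 abundant nucleolar proteins, 21 small subunit factors and 17 large subunit factors. RNA was sequenced from B16.F10 cells, a mouse melanoma line, grown as monolayers in 1% oxygen, in 5 groups of 3 libraries labelled as biological replicates. Hif1a_siRNA_Dox cells received lipoplexes with an siRNA against Hif1a at 25 nM and, after 24 h, doxorubicin at 0.25 µM for another 24 h. Dox cells received doxorubicin alone and Hif1a_siRNA cells the Hif1a siRNA alone, at the same doses. NC_siRNA cells received a negative control siRNA, also at 25 nM, and Control cells received neither siRNA nor drug. The labels give no separate harvest time for the groups without drug. Doxorubicin is an anthracycline that intercalates into DNA and poisons topoisomerase II, and Hif1a codes for HIF-1 alpha, which accumulates in cells when oxygen is low. No group combined the negative control siRNA with doxorubicin, so Hif1a_siRNA_Dox and Dox cells differed in transfection as well as in the siRNA's target. The labels do not say whether the 3 libraries of a group came from separate cultures, and the p-values measure the spread between these libraries. That spread was estimated for each gene from all 5 groups together. Pairs of Hif1a_siRNA_Dox libraries agreed least, with a chi-square per degree of freedom of 25.0 to 34.5 over all genes. Pairs within the other groups had 3.56 to 16.7, and the errors given below do not allow for this difference.

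Ribosome production starts with transcription of the ribosomal DNA repeats by RNA polymerase I, which needs the upstream binding factor and the selectivity factor SL1. The precursor RNA is methylated by box C/D and pseudouridylated by box H/ACA snoRNPs while the small subunit processome and the large subunit precursors assemble on it. The Myc transcription factor is a known activator of many of these genes in proliferating cells, and doxorubicin is known to disturb the nucleolus.

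Promoter sequence is shown for 3 factors whose changes are described below: Dkc1 and Gar1, which encode partners in one box H/ACA particle, and Nop2, an rRNA methyltransferase whose promoter holds both motifs marked here. Each stretch is the RefSeq sequence (GRCm38.p6) directly before the annotated gene, read 5′ to 3′ on the gene's strand, at chrX:75095654-75095853 on the plus strand for Dkc1, chr3:129831408-129831596 on the minus strand for Gar1 and chr6:125131683-125131882 on the plus strand for Nop2. Capitals mark CACGTG, the E-box letters that Myc and its partner Max are known to bind, and CTTCCG or its complement CGGAAG, the core letters known for ETS-family factors.
Dkc1: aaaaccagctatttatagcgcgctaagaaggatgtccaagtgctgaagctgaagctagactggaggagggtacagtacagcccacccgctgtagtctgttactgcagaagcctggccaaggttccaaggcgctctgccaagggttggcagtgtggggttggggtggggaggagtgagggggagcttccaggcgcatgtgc
Gar1: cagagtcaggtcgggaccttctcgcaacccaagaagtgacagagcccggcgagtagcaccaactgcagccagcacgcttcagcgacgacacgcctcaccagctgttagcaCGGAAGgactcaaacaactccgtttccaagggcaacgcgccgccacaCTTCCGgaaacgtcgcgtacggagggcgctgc
Nop2: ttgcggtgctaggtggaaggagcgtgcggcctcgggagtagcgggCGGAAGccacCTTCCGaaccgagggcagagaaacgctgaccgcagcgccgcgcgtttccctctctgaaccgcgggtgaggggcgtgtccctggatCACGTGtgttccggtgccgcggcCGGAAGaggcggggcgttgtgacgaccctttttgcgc
Dkc1 held neither set of letters in this stretch, Gar1 held 2 matches to CTTCCG over both strands, and Nop2 held 3 together with 1 CACGTG. Promoter windows of 300 bases, most of them before the annotated start, were at hand for 49 of the 54 members. On either strand, CTTCCG occurred in 30 of these 49 genes (61.2%), against 36.9% of the 9552 tested genes with a window. CACGTG occurred in 9 of 49 (18.4%) against 12.0%. ACGTG, which lies within CACGTG and is a form of the core of the known HIF binding site, occurred in 38.8% against 30.2%. GCGTG was found in 71.4% against 56.9%, and CCAAT in 38.8% against 44.0%. A match describes the letters of a window and not a bound site.

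Levels are given as counts per 1000000 reads (CPM) on library sizes scaled by TMM, and changes as log2 fold changes from edgeR's quasi-likelihood test, with Benjamini-Hochberg adjustment over the 12721 genes and a threshold of 0.05. In bulk RNA, fewer cells of a kind and less RNA per cell cannot be told apart. The libraries held 23825110 to 28734303 reads. Hif1a itself was at 13.5, 11.6 and 14.2 CPM in Hif1a_siRNA_Dox, 138, 137 and 153 CPM in Dox, 16.7, 15.9 and 18.9 CPM in Hif1a_siRNA, 289, 268 and 264 CPM in NC_siRNA and 205, 231 and 216 CPM in Control libraries, so all libraries with the Hif1a siRNA were the lowest. All 7 melanocytic markers were listed, with a summed level of 29682 to 36513 CPM in Hif1a_siRNA_Dox, 39692 to 46325 CPM in Dox, 8997 to 9408 CPM in Hif1a_siRNA, 8288 to 8956 CPM in NC_siRNA and 13419 to 14554 CPM in Control. The list did not move as one: in Dox against Control Sox10 fell by 2.81 and Tyr by 0.43 while the other 5 rose, and in Hif1a_siRNA_Dox against Hif1a_siRNA Sox10 fell by 2.60, Tyr by 1.73 and Mitf by 0.71 while the other 4 rose. The 2 fibroblast markers, Col1a1 and Pdgfra, summed to 61.8 to 85.8 CPM in Hif1a_siRNA_Dox, 37.2 to 60.7 CPM in Dox, 3.93 to 5.01 CPM in Hif1a_siRNA, 2.49 to 3.08 CPM in NC_siRNA and 6.22 to 6.62 CPM in Control. Mitochondrial transcripts took 3.905% to 5.07% of reads in Hif1a_siRNA_Dox, 3.37% to 4.08% in Dox, 1.64% to 2.11% in Hif1a_siRNA, 1.79% to 2.06% in NC_siRNA and 1.38% to 1.47% in Control. Cd68 was the 1 leukocyte marker listed of 3, at 4.03 to 9.504 CPM in the libraries with doxorubicin and 7.22 to 30.1 CPM in those without. The melanocytic and fibroblast sums and the mitochondrial share were higher with doxorubicin. In NC_siRNA against Control both sums were lower and the mitochondrial share higher, with no overlap between the groups. In Hif1a_siRNA against NC_siRNA the melanocytic list was mixed as well. Pmel rose by 1.26, Tyr by 1.05 and Mitf by 0.56, Tyrp1 (-0.45) and Sox10 (-0.23) fell, and Dct and Mlana did not pass the test. Col1a1 rose by 0.81 there, Pdgfra did not pass and Cd68 fell by 1.04. The part of these values in the results below was not tested.

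With the Hif1a siRNA, nearly the whole set was higher than with the control siRNA. Of the 54 members, 49 rose in Hif1a_siRNA against NC_siRNA, where 67.7% of all tested genes were called and 36.4% were called higher. At least 2-fold rises were called for 32 members and for 1466 of all 12721 genes. Only Pes1 fell, where 31.2% of all genes were called lower, and Ubtf, Taf1b, Rrp1 and Utp3 did not pass the test. The median change of the members was 1.16 on the log2 scale, against 0.06 for all genes tested. All 3 box C/D and all 4 box H/ACA proteins rose, as did 20 of 21 small subunit and 15 of 17 large subunit factors. The members' summed level was 5610 ± 115 CPM in Hif1a_siRNA and 3394 ± 81.8 CPM in NC_siRNA (SD, n = 3 each).

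Cells transfected with the control siRNA had lower levels of many members than untransfected cells. In NC_siRNA against Control 27 members fell and 12 rose, where 66.8% of all genes were called, 33.7% lower and 33.1% higher, and 15 did not pass. Upper-quartile scaling gave 31 lower and 8 higher. The members' summed level was 3394 ± 81.8 CPM in NC_siRNA and 5087 ± 35.0 CPM in Control (SD, n = 3 each). Most of that difference lay in Npm1, with a mean of 1369 CPM in NC_siRNA and 2465 CPM in Control, and Ncl, with 615 CPM in NC_siRNA and 974 CPM in Control. The small subunit factors summed to 495.5 CPM in NC_siRNA and 569 CPM in Control, and the polymerase I factors, which were higher in sum, to 169 CPM in NC_siRNA and 137.5 CPM in Control. Since NC_siRNA is the comparator of the knockdown, Hif1a_siRNA was also set against Control, a choice made after the data were seen. There 45 members were higher and 5 were lower, namely Npm1, Nle1, Taf1b, Pes1 and Rrp1, with 74.4% of all genes called, 40.2% higher and 34.2% lower. This comparison shares the Hif1a_siRNA libraries with the one against NC_siRNA.

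Doxorubicin split the set. In Dox against Control 33 members rose, 22 of them at least 2-fold, and 16 fell, 6 of them at least 2-fold, while Wdr12, Nop14, Nip7, Utp20 and Taf1a did not pass the test. Of all 12721 genes, 3412 were called higher and 3113 lower by at least 2-fold. Among all genes 43.9% were called higher and 39.8% lower in this comparison, and the median change was 0.63 for the members and 0.10 for all genes. After the Hif1a siRNA, in Hif1a_siRNA_Dox against Hif1a_siRNA, 21 members rose and 28 fell, with 84.2% of all genes called, 42.6% higher and 41.6% lower. Under doxorubicin the siRNA went with small changes: in Hif1a_siRNA_Dox against Dox 15 members rose and 8 fell, with 21.5% and 20.8% of all genes called higher and lower. No called member reached 2-fold there, and few genes did: of all 12721, 94 were called higher and 323 lower by at least 2-fold. The share of members called in either direction was 90.7% in Dox against Control and 42.6% in Hif1a_siRNA_Dox against Dox, near the 83.8% and 42.2% of all genes. The share called higher in Dox against Control was 61.1% of the members and 43.9% of all genes.

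**Figure D1:**
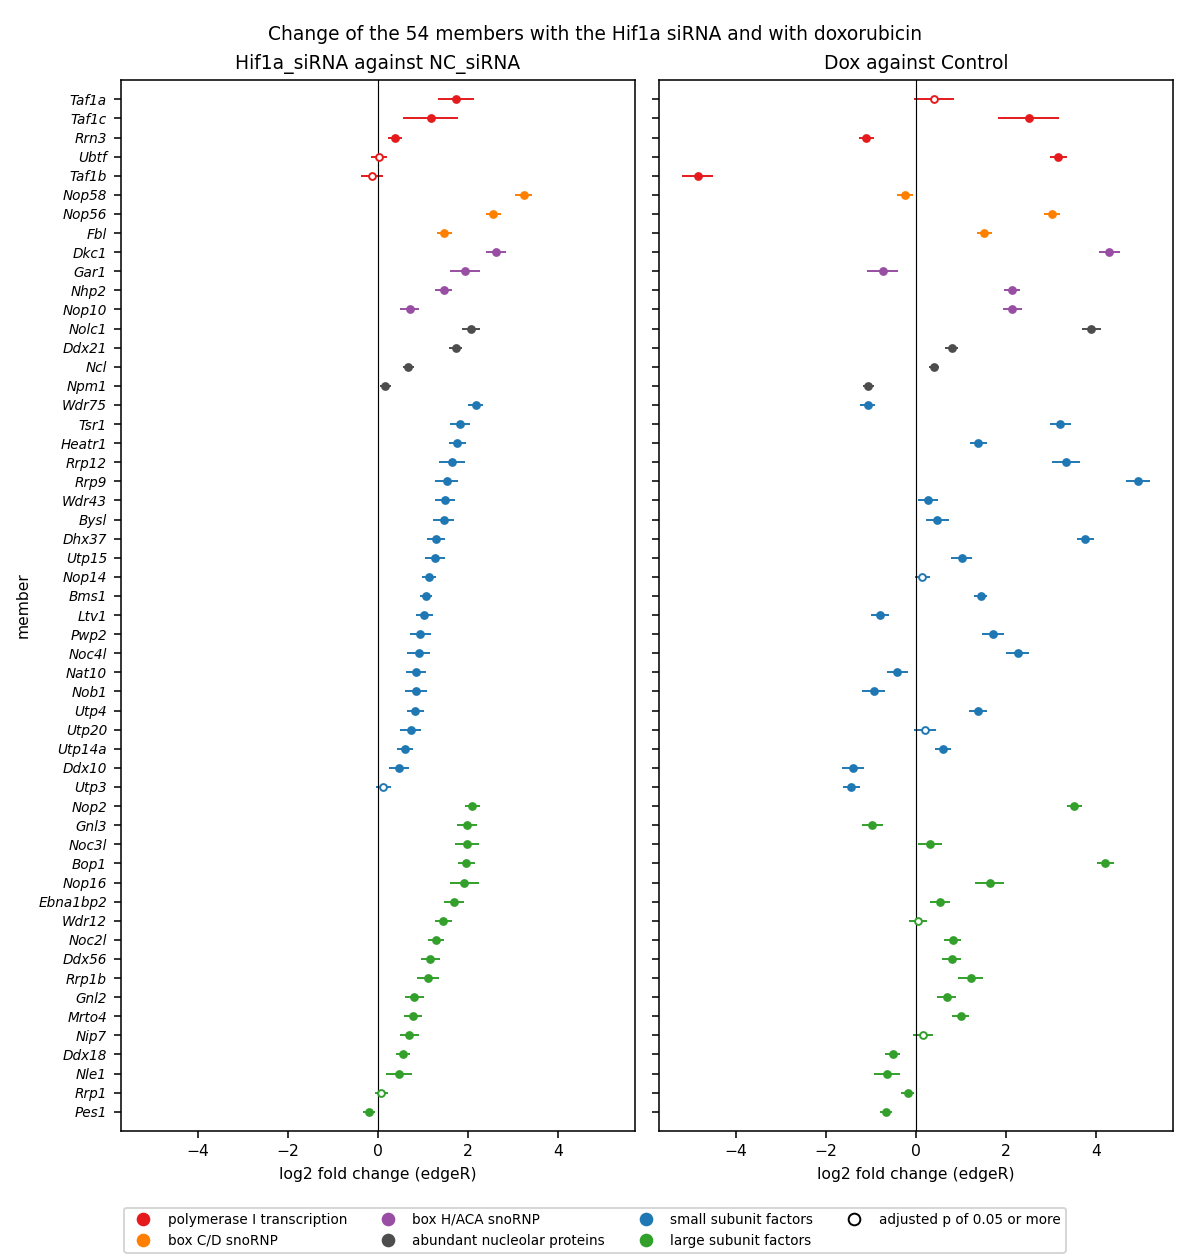
Log2 fold change from edgeR (horizontal axis) of each of the 54 members (rows, coloured and grouped by role) in Hif1a_siRNA against NC_siRNA (left) and Dox against Control (right); points are estimates, lines are 95% confidence intervals and open points did not pass the test. In the left panel 49 members lie to the right of 0 with a passed test, while in the right panel 33 lie to the right and 16 to the left, from -4.86 for Taf1b to 4.92 for Rrp9.

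Among the factors of RNA polymerase I transcription, Ubtf and Taf1b went opposite ways with doxorubicin. Ubtf encodes the upstream binding factor, which coats the active ribosomal DNA repeats. Ubtf measured 355, 341 and 312 CPM in Hif1a_siRNA_Dox, 254, 267 and 213 CPM in Dox, 55.6, 50.8 and 52.3 CPM in Hif1a_siRNA, 51.8, 50.3 and 55.2 CPM in NC_siRNA and 24.7, 28.5 and 29.2 CPM in Control. The drug-treated libraries were all far above the untreated ones, and the Hif1a_siRNA and NC_siRNA libraries overlapped. Ubtf rose by 3.16 (SE 0.090, adjusted p = 2.2e-19) in Dox against Control, by 2.67 (SE 0.086, adjusted p = 2.4e-18) in Hif1a_siRNA_Dox against Hif1a_siRNA and by 0.46 (SE 0.080, adjusted p = 9.3e-05) in Hif1a_siRNA_Dox against Dox. It was also higher in NC_siRNA than in Control, by 0.93 (SE 0.088, adjusted p = 3.8e-09). Between Hif1a_siRNA and NC_siRNA the change was 0.012 (SE 0.084, adjusted p = 0.91), short of the threshold.

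Taf1b encodes a subunit of SL1, the factor that places polymerase I at the promoter. Taf1b had levels of 1.78, 3.12 and 1.95 CPM in Hif1a_siRNA_Dox, 1.23, 1.72 and 1.597 CPM in Dox, 34.2, 29.5 and 30.9 CPM in Hif1a_siRNA, 37.1, 33.1 and 33.4 CPM in NC_siRNA and 48.04, 40.96 and 43.2 CPM in Control. No library with doxorubicin exceeded 3.12 CPM, and none without it was under 29.5 CPM. The change was -4.86 (SE 0.17, adjusted p = 5.1e-18) in Dox against Control and -3.77 (SE 0.15, adjusted p = 1.1e-16) in Hif1a_siRNA_Dox against Hif1a_siRNA. Taf1b was also lower in NC_siRNA than in Control (-0.35, SE 0.12, adjusted p = 0.012). Between Hif1a_siRNA_Dox and Dox it was 0.61 higher (adjusted p = 0.024), but this was 0.28 (adjusted p = 0.28) without Hif1a_siRNA_Dox replicate 2 and 0.48 (adjusted p = 0.12) without Dox replicate 1, both short of the threshold.

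The remaining SL1 subunits among the members are Taf1a and Taf1c. Taf1a stood at 3.84, 3.703 and 4.89 CPM in Hif1a_siRNA_Dox, 4.12, 3.95 and 3.68 CPM in Dox, 11.4, 9.61 and 11.0 CPM in Hif1a_siRNA, 2.59, 4.104 and 2.94 CPM in NC_siRNA and 2.38, 2.65 and 3.94 CPM in Control. The Hif1a_siRNA libraries stood above all others, and the remaining groups lay close together at low counts. Taf1a rose by 1.73 (SE 0.20, adjusted p = 4.5e-08) with the Hif1a siRNA and fell with doxorubicin after the siRNA, by 1.37 (adjusted p = 5.9e-07) in Hif1a_siRNA_Dox against Hif1a_siRNA. In Dox against Control it was 0.39, short of the threshold, and the difference of the doxorubicin effects was -1.75 (SE 0.29, adjusted p = 1.6e-05). Taf1c had the fewest reads of the set, 6 in 1 Control library, and rose by 2.49 (SE 0.33, adjusted p = 2.3e-07) in Dox against Control, as Ubtf did. It was also higher by 0.65 (SE 0.26, adjusted p = 0.025) in Hif1a_siRNA_Dox against Hif1a_siRNA, but at 0.48 to 0.61 short of the threshold without Hif1a_siRNA replicate 2 or 3 or Hif1a_siRNA_Dox replicate 3. In NC_siRNA against Control it was 0.86 (SE 0.36, adjusted p = 0.039), but at 0.49 to 0.80 short of the threshold without Control replicate 2 or 3 or NC_siRNA replicate 2 or 3, and 1.46 without Control replicate 1. Rrn3, which links polymerase I to SL1, rose by 0.37 with the Hif1a siRNA and fell by 1.11 in Dox against Control and by 1.47 in Hif1a_siRNA_Dox against Hif1a_siRNA. The 3 SL1 subunits among the members thus spread over 7.35 log2 units in Dox against Control, with the low-count Taf1c at the upper end. This grouping by complex was chosen after the values were seen.

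The box C/D proteins all rose with the Hif1a siRNA, and parted with doxorubicin. Nop58 and Nop56 encode paired scaffold proteins of these particles, and Fbl encodes fibrillarin, their methyltransferase. Nop58 measured 57.2, 64.2 and 57.04 CPM in Hif1a_siRNA_Dox, 42.3, 41.9 and 45.7 CPM in Dox, 284, 288 and 277 CPM in Hif1a_siRNA, 29.9, 27.8 and 32.6 CPM in NC_siRNA and 49.1, 59.3 and 45.9 CPM in Control. Its 3 Hif1a_siRNA libraries stood above every other library, and its Dox and Control libraries did not overlap. Nop58 rose by 3.23 (SE 0.092, adjusted p = 6.4e-19) in Hif1a_siRNA against NC_siRNA, the largest rise of any member, and fell by 2.25 (adjusted p = 5.8e-17) in Hif1a_siRNA_Dox against Hif1a_siRNA. In Dox against Control it was -0.25 (SE 0.088, adjusted p = 0.013), but -0.13 (adjusted p = 0.16) without Control replicate 2. With upper-quartile factors it was -0.12 (adjusted p = 0.2). In Hif1a_siRNA_Dox against Dox it rose by 0.46 (SE 0.087, adjusted p = 0.00021).

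Nop56 had levels of 247, 279 and 246 CPM in Hif1a_siRNA_Dox, 213, 253 and 220.1 CPM in Dox, 144, 151 and 139 CPM in Hif1a_siRNA, 23.1, 26.2 and 24.5 CPM in NC_siRNA and 29.9, 28.2 and 26.96 CPM in Control. Here the drug-treated libraries were the highest, Hif1a_siRNA came next, and NC_siRNA and Control were the lowest. Nop56 rose by 2.56 (SE 0.082, adjusted p = 6.8e-18) in Hif1a_siRNA against NC_siRNA, by 3.01 (SE 0.083, adjusted p = 1.2e-19) in Dox against Control and by 0.83 (SE 0.075, adjusted p = 3.9e-10) in Hif1a_siRNA_Dox against Hif1a_siRNA. Nop58 and Nop56 therefore changed in opposite directions in Hif1a_siRNA_Dox against Hif1a_siRNA. Fbl stood at 97.1, 104 and 98.7 CPM in Hif1a_siRNA_Dox, 116, 121 and 131 CPM in Dox, 61.9, 63.03 and 62.4 CPM in Hif1a_siRNA, 21.9, 20.96 and 24.95 CPM in NC_siRNA and 46.1, 39.99 and 43.3 CPM in Control. No Fbl library of one group overlapped another group. Fbl rose by 1.47 (SE 0.082, adjusted p = 1.8e-13) in Hif1a_siRNA against NC_siRNA and by 1.51 (SE 0.080, adjusted p = 1.6e-14) in Dox against Control, and was lower by 0.30 (adjusted p = 0.0033) in Hif1a_siRNA_Dox against Dox and by 0.93 (adjusted p = 1.5e-09) in NC_siRNA against Control.

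**Figure D2:**
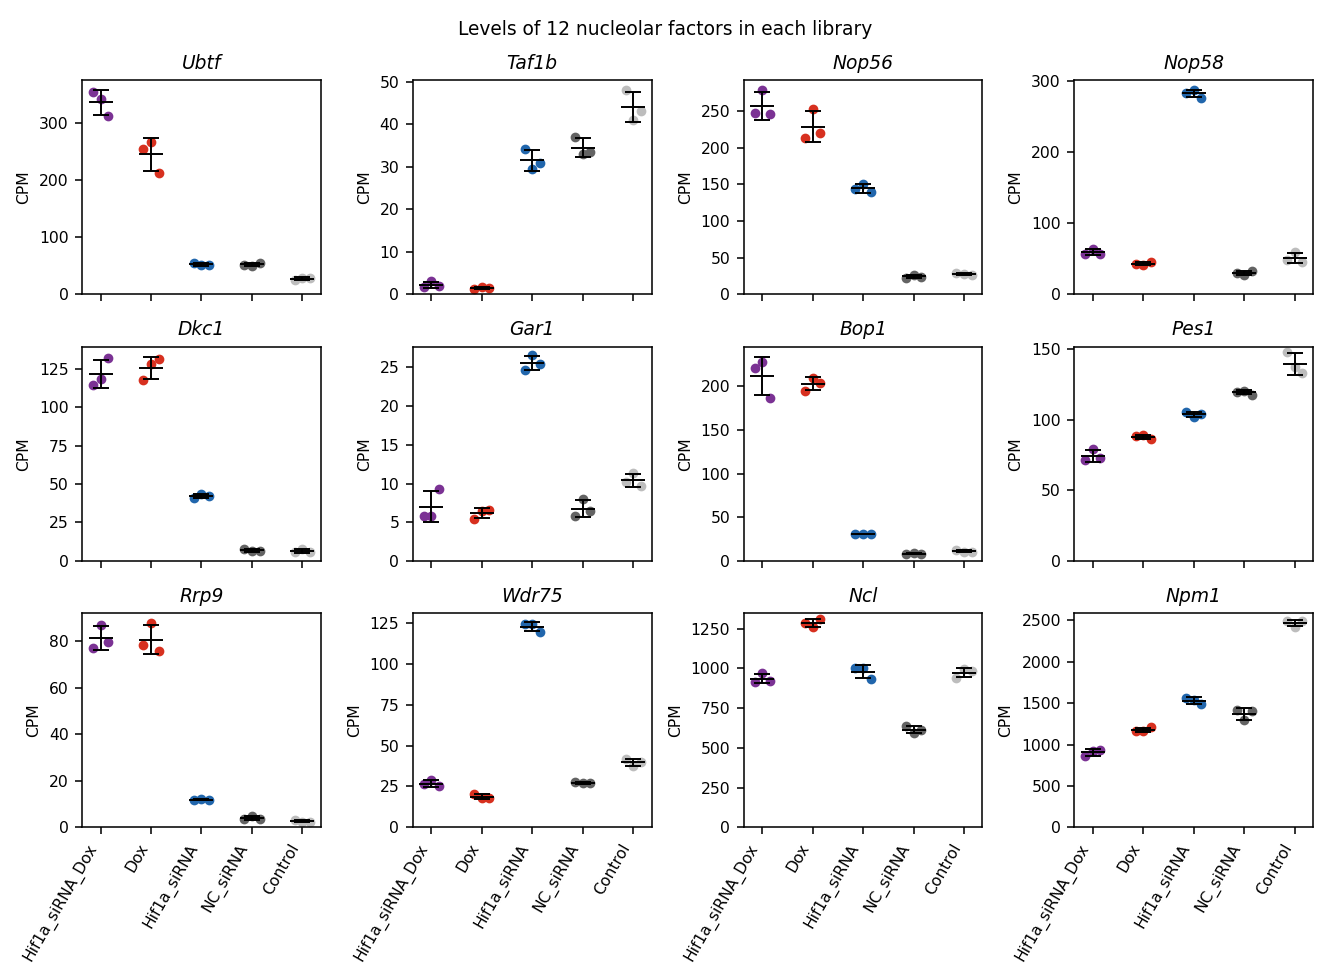
CPM (vertical axes, each starting at 0) of 12 members in each library of the 5 groups (horizontal axes); points are libraries, and the long bar and whiskers are the mean and SD of 3 libraries. Ubtf, Nop56, Dkc1, Bop1 and Rrp9 are highest in the groups with doxorubicin, Nop58, Gar1 and Wdr75 in Hif1a_siRNA, and Taf1b, Pes1 and Npm1 in Control.

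In the box H/ACA particle, 3 subunits rose with doxorubicin and Gar1 fell. Dkc1 encodes dyskerin, the pseudouridine synthase, which is also a part of telomerase. Dkc1 measured 114, 118 and 132 CPM in Hif1a_siRNA_Dox, 118, 128 and 132 CPM in Dox, 41.1, 43.8 and 42.1 CPM in Hif1a_siRNA, 7.95, 6.34 and 6.29 CPM in NC_siRNA and 5.96, 7.67 and 5.63 CPM in Control. The NC_siRNA and Control libraries overlapped at the lowest levels, and both drug-treated groups overlapped at the highest. Dkc1 rose by 2.62 (SE 0.11, adjusted p = 6.8e-16) in Hif1a_siRNA against NC_siRNA, by 4.29 (SE 0.11, adjusted p = 5.3e-20) in Dox against Control and by 1.52 (SE 0.093, adjusted p = 2.6e-13) in Hif1a_siRNA_Dox against Hif1a_siRNA. Gar1 had levels of 5.84, 5.82 and 9.32 CPM in Hif1a_siRNA_Dox, 5.47, 6.51 and 6.61 CPM in Dox, 24.7, 26.6 and 25.5 CPM in Hif1a_siRNA, 5.83, 7.95 and 6.397 CPM in NC_siRNA and 10.1, 11.4 and 9.69 CPM in Control. For Gar1, a core subunit of the same particle, the Hif1a_siRNA libraries stood alone at the top. Gar1 rose by 1.93 (SE 0.16, adjusted p = 1.9e-10) in Hif1a_siRNA against NC_siRNA but fell by 0.75 (adjusted p = 0.00025) in Dox against Control and by 1.88 (adjusted p = 9.4e-11) in Hif1a_siRNA_Dox against Hif1a_siRNA. The gap between Dkc1 and Gar1 in Dox against Control was 5.04 log2 units.

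Nhp2 stood at 91.6, 94.6 and 89.4 CPM in Hif1a_siRNA_Dox, 119, 109 and 120.5 CPM in Dox, 43.0, 36.2 and 41.2 CPM in Hif1a_siRNA, 14.3, 13.8 and 15.96 CPM in NC_siRNA and 26.1, 24.9 and 28.6 CPM in Control. The groups did not overlap, with Dox highest and NC_siRNA lowest. Nhp2, the particle's RNA-binding subunit, rose by 2.13 (SE 0.086, adjusted p = 1.1e-16) in Dox against Control and by 1.45 (SE 0.088, adjusted p = 9.5e-13) in Hif1a_siRNA against NC_siRNA, and was -0.85 (SE 0.091, adjusted p = 2.4e-08) in NC_siRNA against Control. Nop10 measured 41.97, 42.5 and 48.4 CPM in Hif1a_siRNA_Dox, 73.3, 74.3 and 92.1 CPM in Dox, 23.3, 20.5 and 20.8 CPM in Hif1a_siRNA, 12.6, 12.8 and 14.5 CPM in NC_siRNA and 17.95, 17.8 and 18.9 CPM in Control. Nop10, the small subunit that binds dyskerin, was highest in every Dox library. It had the deepest fall of the set in Hif1a_siRNA_Dox against Dox, -0.85 (SE 0.10, adjusted p = 2.7e-07), although it rose by 0.70 with the Hif1a siRNA in the absence of the drug.

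The 4 abundant nucleolar proteins all passed the test in Hif1a_siRNA against NC_siRNA, and in Dox against Control 3 rose and Npm1 fell. Npm1 had levels of 859, 922 and 935 CPM in Hif1a_siRNA_Dox, 1165, 1164 and 1208 CPM in Dox, 1564, 1536 and 1485 CPM in Hif1a_siRNA, 1415, 1292 and 1399 CPM in NC_siRNA and 2486, 2420.3 and 2488 CPM in Control. Npm1, which encodes nucleophosmin of the granular component, had most reads of the set, and stood highest in all Control libraries and lowest in all Hif1a_siRNA_Dox libraries. It was -1.06 (SE 0.057, adjusted p = 2.2e-14) in Dox against Control, -0.76 (SE 0.057, adjusted p = 1.3e-11) in Hif1a_siRNA_Dox against Hif1a_siRNA, -0.38 (SE 0.057, adjusted p = 1.3e-05) in Hif1a_siRNA_Dox against Dox and -0.85 (SE 0.057, adjusted p = 1.8e-11) in NC_siRNA against Control. In Hif1a_siRNA against NC_siRNA it was 0.16 (SE 0.057, adjusted p = 0.016), a call that depended on the settings. It was lost with size factors from RLE (0.11, adjusted p = 0.085) and without NC_siRNA replicate 2 (0.11, adjusted p = 0.12), Hif1a_siRNA replicate 1 (0.14, adjusted p = 0.07) or Hif1a_siRNA replicate 2 (0.15, adjusted p = 0.054), and against Control the direction turned (-0.69).

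Ncl stood at 916, 969 and 923 CPM in Hif1a_siRNA_Dox, 1287, 1258 and 1311 CPM in Dox, 1002, 1001 and 932 CPM in Hif1a_siRNA, 639, 596 and 609.7 CPM in NC_siRNA and 939, 998 and 986 CPM in Control. Ncl, which encodes nucleolin, was highest in Dox and lowest in NC_siRNA, with Hif1a_siRNA_Dox, Hif1a_siRNA and Control in between and overlapping in part. It rose by 0.67 (SE 0.056, adjusted p = 3.1e-10) in Hif1a_siRNA against NC_siRNA and by 0.40 (SE 0.056, adjusted p = 6.4e-07) in Dox against Control, and was -0.46 (SE 0.056, adjusted p = 1.1e-06) in Hif1a_siRNA_Dox against Dox. Against Control, Hif1a_siRNA gave a change of 0.0060 (SE 0.056, adjusted p = 0.93) for Ncl. Nolc1 measured 155, 172 and 169 CPM in Hif1a_siRNA_Dox, 184, 199 and 203 CPM in Dox, 62.8, 64.9 and 62.2 CPM in Hif1a_siRNA, 13.99, 14.5 and 17.1 CPM in NC_siRNA and 15.7, 12.2 and 11.7 CPM in Control. Nolc1, a chaperone of snoRNPs, was highest in Dox and overlapped between NC_siRNA and Control. It rose by 2.06 (SE 0.10, adjusted p = 6e-15) in Hif1a_siRNA against NC_siRNA, by 3.89 (SE 0.10, adjusted p = 4.5e-20) in Dox against Control and by 1.39 (SE 0.087, adjusted p = 5.1e-13) in Hif1a_siRNA_Dox against Hif1a_siRNA. Ddx21, an RNA helicase, rose by 1.72 with the Hif1a siRNA and by 0.78 in Dox against Control, and was -0.36 in Hif1a_siRNA_Dox against Hif1a_siRNA.

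Of the 21 small subunit factors 13 rose (61.9%, against 43.9% of all genes) and 6 fell (28.6% against 39.8%) in Dox against Control. In Hif1a_siRNA_Dox against Hif1a_siRNA 9 rose (42.9%) and 10 fell (47.6%), near the 42.6% and 41.6% of all genes. Rrp9, a protein of the U3 snoRNP that guides early cleavage, had the largest rise. Rrp9 had levels of 77.2, 87.1 and 79.4 CPM in Hif1a_siRNA_Dox, 78.3, 87.8 and 75.8 CPM in Dox, 11.8, 12.3 and 11.6 CPM in Hif1a_siRNA, 3.78, 5.06 and 3.61 CPM in NC_siRNA and 3.13, 2.51 and 2.34 CPM in Control. The 6 drug-treated libraries overlapped at a level far above all others. Rrp9 rose by 4.92 (SE 0.13, adjusted p = 5e-20) in Dox against Control, 2.77 (SE 0.10, adjusted p = 3.5e-17) in Hif1a_siRNA_Dox against Hif1a_siRNA and 0.64 (SE 0.15, adjusted p = 0.00085) in NC_siRNA against Control. Its gene overlaps Parp3 on the opposite strand over 10.4% of its length, and whether the counting used strand is not given in the sources used here.

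Wdr75, a subunit of the UTP-A complex that couples rDNA transcription to processing, had its highest level in Hif1a_siRNA, like Nop58. Wdr75 stood at 26.4, 28.8 and 25.04 CPM in Hif1a_siRNA_Dox, 20.4, 18.2 and 17.8 CPM in Dox, 124, 124 and 119.5 CPM in Hif1a_siRNA, 27.9, 26.9 and 26.9 CPM in NC_siRNA and 41.9, 37.6 and 39.9 CPM in Control. All Hif1a_siRNA libraries stood above the rest, and the Dox libraries were the lowest. Wdr75 rose by 2.17 (SE 0.080, adjusted p = 9.9e-17) in Hif1a_siRNA against NC_siRNA, the largest rise of its class, and was -1.08 (SE 0.083, adjusted p = 2.1e-11) in Dox against Control and -2.19 (SE 0.080, adjusted p = 2.2e-17) in Hif1a_siRNA_Dox against Hif1a_siRNA. The other UTP-A subunits among the members, Heatr1, Utp4, Utp15 and Wdr43, rose in Dox against Control, by 1.38, 1.37, 1.01 and 0.26 on the log2 scale. For Wdr43 that call was lost with RLE size factors, and, at values of 0.083 to 0.26, without Control replicate 1 or 2, NC_siRNA replicate 2, any Hif1a_siRNA replicate, Dox replicate 2 or Hif1a_siRNA_Dox replicate 2. All 5 UTP-A subunits among the members were higher in Hif1a_siRNA_Dox than in Dox, by 0.43 to 0.60.

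Tsr1, a factor of the late small subunit precursor, showed the largest rise of its class in Hif1a_siRNA_Dox against Dox. Tsr1 measured 99.6, 122 and 101 CPM in Hif1a_siRNA_Dox, 61.2, 77.97 and 69.7 CPM in Dox, 36.5, 37.8 and 41.2 CPM in Hif1a_siRNA, 10.3, 12.1 and 10.6 CPM in NC_siRNA and 6.93, 7.72 and 8.09 CPM in Control. The 5 groups did not overlap and the order ran down through Dox and Hif1a_siRNA to Control. Tsr1 rose by 0.63 (SE 0.10, adjusted p = 2e-05) in Hif1a_siRNA_Dox against Dox and by 3.20 (SE 0.11, adjusted p = 1.3e-17) in Dox against Control. The opposite-strand gene Srr covers 26.5% of the Tsr1 gene. Utp3 had levels of 18.5, 19.8 and 20.03 CPM in Hif1a_siRNA_Dox, 19.4, 23.3 and 18.8 CPM in Dox, 48.2, 53.9 and 46.4 CPM in Hif1a_siRNA, 45.0, 44.7 and 47.05 CPM in NC_siRNA and 56.8, 55.8 and 54.4 CPM in Control. Utp3, a processome component, was lower in every drug-treated library than in every other and had the largest fall of its class, -1.44 (SE 0.090, adjusted p = 4.1e-13) in Dox against Control. Ltv1 stood at 18.4, 19.8 and 16.6 CPM in Hif1a_siRNA_Dox, 16.9, 19.2 and 20.1 CPM in Dox, 44.6, 45.96 and 43.4 CPM in Hif1a_siRNA, 22.6, 22.4 and 21.01 CPM in NC_siRNA and 33.1, 31.2 and 34.1 CPM in Control. Ltv1, an assembly factor of the small subunit head, fell by 0.58 (adjusted p = 8.1e-06) in NC_siRNA against Control and by 0.81 (adjusted p = 2.7e-08) in Dox against Control. Its Hif1a_siRNA libraries were the highest. Dhx37, a helicase of the processome, and Rrp12 rose by 3.75 and 3.32 with doxorubicin and by 1.28 and 1.64 with the Hif1a siRNA.

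Among the 17 large subunit factors, the 3 members of the PeBoW complex, which matures the large subunit rRNA, gave 3 different outcomes with doxorubicin. Bop1 measured 221, 227 and 187 CPM in Hif1a_siRNA_Dox, 195, 209.5 and 204 CPM in Dox, 30.8, 31.3 and 30.5 CPM in Hif1a_siRNA, 7.41, 8.57 and 7.85 CPM in NC_siRNA and 12.1, 10.7 and 10.3 CPM in Control. The drug-treated libraries overlapped at a level well above Hif1a_siRNA, and NC_siRNA was the lowest. Bop1 rose by 4.20 (SE 0.093, adjusted p = 3.4e-21) in Dox against Control, 2.78 (SE 0.083, adjusted p = 6.5e-19) in Hif1a_siRNA_Dox against Hif1a_siRNA and 1.96 (SE 0.092, adjusted p = 8.5e-15) in Hif1a_siRNA against NC_siRNA. Pes1 had levels of 71.4, 79.2 and 72.6 CPM in Hif1a_siRNA_Dox, 88.5, 89.01 and 86.2 CPM in Dox, 105, 102 and 104 CPM in Hif1a_siRNA, 119.8, 120.5 and 118 CPM in NC_siRNA and 148, 137 and 133 CPM in Control. The Pes1 groups did not overlap, with Control highest and Hif1a_siRNA_Dox lowest. Pes1 was -0.66 (SE 0.065, adjusted p = 1.7e-09) in Dox against Control and -0.20 (SE 0.064, adjusted p = 0.0085) in Hif1a_siRNA against NC_siRNA, where it was the one member that fell. Wdr12 was 0.030 in Dox against Control, short of the threshold, and rose by 1.45 (SE 0.093, adjusted p = 2.6e-12) in Hif1a_siRNA against NC_siRNA.

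Nop2 stood at 263, 291 and 256 CPM in Hif1a_siRNA_Dox, 223, 242 and 239.8 CPM in Dox, 79.3, 81.8 and 76.03 CPM in Hif1a_siRNA, 19.6, 18.8 and 17.1 CPM in NC_siRNA and 22.6, 19.4 and 19.8 CPM in Control. Nop2, the rRNA methyltransferase shown above, had the largest rise of its class with the Hif1a siRNA, and its groups with doxorubicin were the highest. It rose by 2.09 (SE 0.079, adjusted p = 1.6e-16) in Hif1a_siRNA against NC_siRNA and by 3.51 (SE 0.082, adjusted p = 8.2e-21) in Dox against Control. Gnl3 measured 11.3, 13.3 and 10.1 CPM in Hif1a_siRNA_Dox, 7.57, 8.19 and 8.12 CPM in Dox, 70.4, 78.9 and 69.9 CPM in Hif1a_siRNA, 17.02, 19.2 and 19.5 CPM in NC_siRNA and 16.4, 13.8 and 16.6 CPM in Control. Gnl3, which encodes nucleostemin, a nucleolar GTPase abundant in stem and tumour cells, was far higher in Hif1a_siRNA than in any other group. It rose by 1.98 (SE 0.10, adjusted p = 6.1e-14) in Hif1a_siRNA against NC_siRNA, fell by 2.66 (adjusted p = 1.3e-16) in Hif1a_siRNA_Dox against Hif1a_siRNA and by 0.97 (adjusted p = 5e-08) in Dox against Control, and was higher by 0.54 in Hif1a_siRNA_Dox against Dox.

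Nle1 had levels of 11.4, 11.5 and 10.1 CPM in Hif1a_siRNA_Dox, 9.55, 11.1 and 9.53 CPM in Dox, 11.8, 9.88 and 10.7 CPM in Hif1a_siRNA, 6.55, 8.46 and 8.405 CPM in NC_siRNA and 17.7, 16.05 and 13.5 CPM in Control. Nle1, which takes part in remodelling the large subunit precursor, was highest in the Control libraries, and its 9 libraries with drug or Hif1a siRNA overlapped. It had the largest fall of the set in NC_siRNA against Control, -1.01 (SE 0.14, adjusted p = 9e-07), and was -0.65 (SE 0.14, adjusted p = 0.00013) in Dox against Control. Rrp1 stood at 111, 136 and 117 CPM in Hif1a_siRNA_Dox, 154, 159 and 161 CPM in Dox, 149, 149 and 141 CPM in Hif1a_siRNA, 137, 142 and 139.7 CPM in NC_siRNA and 192, 171 and 178 CPM in Control. Rrp1 was highest in Control and lowest in Hif1a_siRNA_Dox, and was -0.38 (SE 0.071, adjusted p = 0.00018) in Hif1a_siRNA_Dox against Dox. Rrp1b measured 17.2, 15.3 and 16.4 CPM in Hif1a_siRNA_Dox, 13.4, 15.3 and 13.7 CPM in Dox, 21.8, 23.02 and 21.9 CPM in Hif1a_siRNA, 8.53, 11.9 and 10.6 CPM in NC_siRNA and 6.18, 5.38 and 6.84 CPM in Control. Its paralog Rrp1b was lowest in Control instead and highest in Hif1a_siRNA. Rrp1b rose by 0.75 (SE 0.13, adjusted p = 3.4e-05) in NC_siRNA against Control and by 1.21 (SE 0.13, adjusted p = 1.2e-08) in Dox against Control.

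The effect of doxorubicin was smaller or more negative after the Hif1a siRNA for most members. The difference of the 2 effects, Hif1a_siRNA_Dox against Hif1a_siRNA minus Dox against Control, was below 0 and past the threshold for 43 members, above 0 for 3 and not past it for 8. Among all genes 58.6% were called in this difference, 32.3% lower and 26.3% higher, and the median was -1.10 for the members against -0.06 for all genes. The largest negative differences were those of Dkc1 (-2.77, SE 0.14, adjusted p = 1.7e-13), Nolc1 (-2.50, SE 0.13, adjusted p = 1.8e-13) and Nop56 (-2.18, SE 0.11, adjusted p = 1.1e-13). Taf1b (1.09, SE 0.24, adjusted p = 0.00049), Nle1 (0.68, SE 0.19, adjusted p = 0.004) and Npm1 (0.31, SE 0.080, adjusted p = 0.0021) were the 3 above 0 and past the threshold. Dkc1, Nolc1 and Nop56 were at 122, 165 and 257 CPM on average in Hif1a_siRNA_Dox and at 126, 195 and 228 CPM in Dox, while without drug they were at 42.3, 63.3 and 145 CPM in Hif1a_siRNA and 6.42, 13.2 and 28.4 CPM in Control. Under the drug Hif1a_siRNA_Dox differed from Dox by -0.050, -0.24 and 0.17 on the log2 scale, and without it Hif1a_siRNA differed from Control by 2.72, 2.26 and 2.35. By direction, 21 members (38.9%) were called higher and 15 (27.8%) lower in both effects, near the 34.8% and 32.6% of all genes. A further 8 members (14.8%, against 3.5% of all genes) were lower in Hif1a_siRNA_Dox against Hif1a_siRNA and higher in Dox against Control, namely Bysl, Ddx21, Ddx56, Ebna1bp2, Noc2l, Noc3l, Rrp1b and Wdr43. Of these, Wdr43 (adjusted p = 0.025) and Noc3l (adjusted p = 0.03) were close to the threshold in Dox against Control and lost that call without some single libraries. Over the 54 members the 2 effects, which share no library, had a Pearson r of 0.91 and a Spearman rho of 0.90, against 0.83 and 0.82 over all 12721 genes, where genes share their libraries and are not independent replicates.

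**Figure D3:**
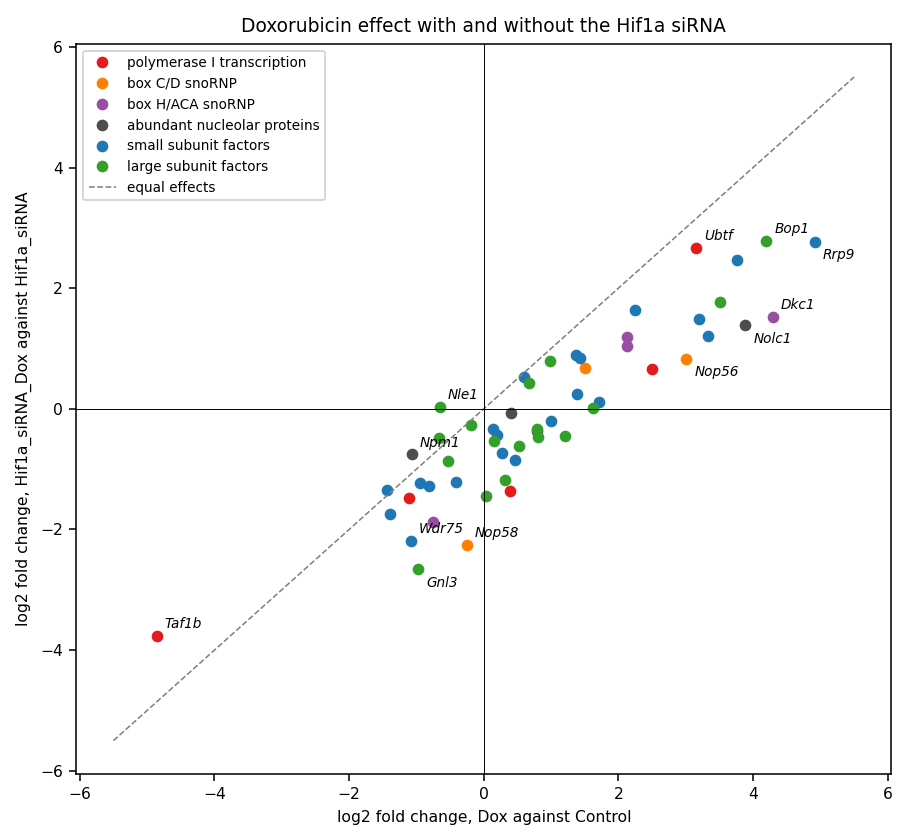
Log2 fold change with doxorubicin in cells without siRNA (horizontal axis, Dox against Control) and after the Hif1a siRNA (vertical axis, Hif1a_siRNA_Dox against Hif1a_siRNA); points are the 54 members coloured by role, and the dashed line marks equal effects. Most points lie below the line, with Dkc1 at 4.29 and 1.52, while 5 lie above it, of which Taf1b, Nle1 and Npm1 passed the test of the difference.

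Doxorubicin's split of the set went along with the base composition of the transcripts. The members were ordered by the G+C content of their longest principal coding transcript in GENCODE M21, a look taken with the doxorubicin results known. The 18 with the lowest content (40.4% to 46.5%) had 7 higher and 8 lower calls in Dox against Control and a median change of 0.09. The middle 18 (46.8% to 52.7%) had 12 higher and 4 lower calls and a median of 0.83, and the highest 18 (53.3% to 60.9%) had 14 higher and 4 lower calls and a median of 1.92. Spearman's rho between G+C content and change was 0.46 over the members and 0.30 over 11043 tested genes in Dox against Control, 0.51 and 0.44 in Hif1a_siRNA_Dox against Hif1a_siRNA, and 0.02 and -0.16 in Hif1a_siRNA against NC_siRNA. These values describe the same libraries, and the part of base composition in the changes was not tested. Dkc1 was a high riser of low G+C content (43.6%), and Gar1 (57.0%) and Nle1 (59.7%) fell at a high content, a choice of examples made after their values were seen.

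**Figure D4:**
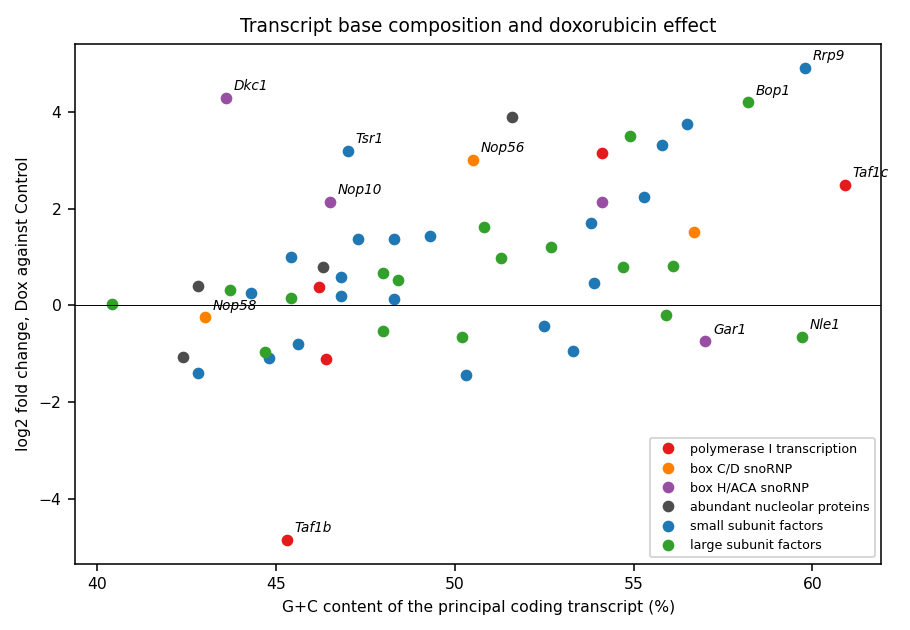
Log2 fold change in Dox against Control (vertical axis) against the G+C content of the principal coding transcript in percent (horizontal axis); points are the 54 members coloured by role. High risers of high content include Rrp9 at 4.92 and Bop1 at 4.20, while Taf1b at 45.3% lies at -4.86.

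A further list of 78 ribosome biogenesis factors outside the set was read in the same comparisons. In Hif1a_siRNA against NC_siRNA 64 of the 78 rose (82.1%, against 36.4% of all genes) and 4 fell (5.13% against 31.2%), led by Nol11 (2.14) and Rrp15 (2.09) upward and Polr1g (-2.19) and Sdad1 (-0.57) downward. In Dox against Control 31 rose (39.7%) and 33 fell (42.3%), shares near the 43.9% and 39.8% of all genes, led by Ftsj3 (4.85) and Nol6 (3.56) upward and Wdr36 (-3.20) and Gtpbp4 (-2.81) downward. In Hif1a_siRNA_Dox against Hif1a_siRNA 14 rose (17.9%, against 42.6% of all genes) and 50 fell (64.1% against 41.6%), with Polr1g (4.15) and Ftsj3 (3.31) at the top and Wdr36 (-3.45) and Gtpbp4 (-3.17) at the bottom. In Hif1a_siRNA_Dox against Dox 28 rose (35.9%, against 21.5% of all genes) and 8 fell (10.3% against 20.8%), between Rcl1 (0.97) and Nol9 (0.84) and Imp3 (-0.87) and Pelp1 (-0.48). In NC_siRNA against Control 12 rose (15.4%, against 33.1% of all genes) and 29 fell (37.2% against 33.7%), between Utp23 (1.22) and Polr1f (0.96) and Polr1c (-1.10) and Exosc8 (-0.82). The difference of the doxorubicin effects passed the threshold above 0 for 14 (17.9%, against 26.3% of all genes) and below 0 for 47 (60.3% against 32.3%). It was led by Polr1g (1.92) and Ddx52 (1.09) upward and Polr1f (-2.05) and Utp25 (-2.01) downward.

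Myc was at 53.4, 41.3 and 43.97 CPM in Hif1a_siRNA_Dox, 20.4, 22.1 and 20.9 CPM in Dox, 33.1, 40.6 and 35.6 CPM in Hif1a_siRNA, 17.1, 17.3 and 18.1 CPM in NC_siRNA and 12.4, 13.98 and 13.2 CPM in Control. Its Hif1a_siRNA_Dox libraries were the highest and its Control libraries the lowest. Myc rose by 1.06 (SE 0.10, adjusted p = 4e-09) in Hif1a_siRNA against NC_siRNA, 0.68 (SE 0.11, adjusted p = 4.6e-06) in Dox against Control and 1.13 (SE 0.10, adjusted p = 1.3e-08) in Hif1a_siRNA_Dox against Dox. It also rose by 0.34 (SE 0.10, adjusted p = 0.0028) in Hif1a_siRNA_Dox against Hif1a_siRNA, where 28 members fell and 21 rose, and by 0.41 (SE 0.11, adjusted p = 0.0023) in NC_siRNA against Control, where 27 members fell and 12 rose. Its part in the members' changes was not tested.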

How the data were processed

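Stranded TruSeq mRNA libraries were prepared from RNeasy-purified RNA, per the labels' protocols. The authors deposited unnormalized counts of reads for each gene. Per the submitters' processing notes, HISAT2 2.1.0, Bowtie2 2.3.4.1, StringTie 2.1.3b, Trimmomatic 0.38 and FastQC 0.11.7 were used, with build mm10. Whether counting used strand is not given in the sources used here. Libraries held 23825110 to 28734303 reads, and members had 6 to 57496 reads in a library; low counts carry more counting error. The 12721 genes listed for all groups were fitted together with edgeR 4.0.16 in R 4.3.3 (TMM, group means, no replicate block, robust quasi-likelihood, two-sided, 10 residual degrees of freedom, common biological coefficient of variation 0.0907; the low-count filter removed 0 genes), with Benjamini-Hochberg adjustment within a comparison and a threshold of 0.05. Alternatives were RLE and upper-quartile factors, DESeq2 1.42.0, limma-voom (limma 3.58.1), an adjusted p under 0.01, other filters, only the groups compared, a replicate block and leaving out each library. The procedure was also run on simulated data in which few genes changed, only in Dox, and all genes had the same dispersion. In the real libraries most genes were called in several comparisons, so that run cannot show how reliable the calls are here.

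Named genes are Ncl, Npm1, Fbl and, in each comparison and role class, the called members with the largest rise and fall; for the difference of doxorubicin effects the 3 largest in each direction, and for the 78 other factors the 2 largest each way. Members and lists were chosen with earlier results of these data known, and members named for a contrast with their class were chosen after their values were seen.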

Additional observations from a re-analysis of the deposited data

Results flagged for a closer look

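The effect of doxorubicin differed between cells with and without the Hif1a siRNA, by edgeR's test of the difference itself. The difference passed the threshold below 0 for 43 members (79.6%) and above 0 for 3 (5.56%). Such differences were widespread: among all genes 58.6% were called, 32.3% below 0 and 26.3% above 0. On the log2 scale this difference, the effect in Hif1a_siRNA_Dox against Hif1a_siRNA minus that in Dox against Control, was -2.77 for Dkc1, -2.50 for Nolc1 and -2.18 for Nop56. It was 0.31 for Npm1, 0.68 for Nle1 and 1.09 for Taf1b. The siRNA groups were transfected and the groups without siRNA were not, so transfection and knockdown cannot be told apart in this difference.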

How the results depend on the processing

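Counts of called members kept within 1.5 times of their values in every alternative, except the members lower in Hif1a_siRNA against NC_siRNA. That count of 1 became 2 when only the groups compared were fitted and 5 with Control in place of NC_siRNA, an alternative added after the data were seen. Over the alternatives and left-out libraries, 7628 member values kept their side of the threshold, 150 lost and 48 gained the call, and 4 reversed. A reversal was counted only for values that passed the threshold in the main fit or in the alternative. Values short of it in both could change sign without being counted. With Control in place of NC_siRNA, Npm1 (-0.69), Rrp1 (-0.30) and Nle1 (-0.55) reversed, and Nop16 reversed in Hif1a_siRNA_Dox against Hif1a_siRNA without Hif1a_siRNA_Dox replicate 2 (-0.28, within a range of -0.28 to 0.16 over the left-out libraries); the cause was not tested. Leaving out 1 library gave 10 to 17 higher and 7 to 10 lower members in Hif1a_siRNA_Dox against Dox, and 8 to 12 higher and 24 to 29 lower in NC_siRNA against Control. Same-numbered libraries did not deviate together (correlations of -0.162 to 0.064), so the numbers do not pair the samples; with a replicate block 10 members were higher and 27 lower in NC_siRNA against Control, against 12 and 27 without it, and Utp4 there was no longer called (0.22, adjusted p = 0.055). Upper-quartile factors moved the median of all genes to 0.22 in Dox against Control and 0.19 in Hif1a_siRNA_Dox against Hif1a_siRNA, from 0.10 and 0.04 with TMM. Members with few reads, such as Taf1a and Taf1c, have the widest errors.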
